A study of Mus musculus with 13 samples.

Results

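Chromatin accessibility was compared between LBL microglia, which had repopulated the brain after depletion, and LL microglia, which had not been depleted, in both cases 3 hours after a second injection of lipopolysaccharide (LPS). The libraries were taken by their labels, LBL 1_2 and LBL 3_4 against LL 1_2 and LL 3_4, which are 4 of the 13 libraries of the series, and only peaks on autosomes were counted. Of 37820 autosomal peaks among 38620 deposited, 36769 passed the filter on low counts and were tested. All animals were male C57BL/6J mice that received LPS at 1 mg/kg intraperitoneally at 10 weeks of age and again 5 weeks later. LBL animals were given BLZ945 by gavage at 169 mg/kg per day for 5 days, starting 1 week after the first injection, and LL animals were given the vehicle. Brains were taken at 15 weeks of age, and microglia were sorted on an XDP instrument as live cells that were high for CD11b, intermediate for CD45 and negative for Ly6c. Cells of 2 animals, 40000 from either, went into every library, and the pool is therefore the replicate. LBL and LL were each isolated on a day of their own, and day and group cannot be told apart.

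The other groups of the series were PBL (PBS, then BLZ945, then LPS, with 3 libraries), PL (PBS, vehicle, LPS, with 2), PBP (PBS, BLZ945, PBS, with 2) and PP (PBS, vehicle, PBS, with 2). PBL was sorted on the XDP instrument, and PL, PBP and PP on an Astrios instrument. PBL 3_4 and PBL 4_5 both carry the number 4 in their names, so by these names the pools share an animal, and they were counted as separate pools. PBL against PL and PBP against PP also set BLZ945 against vehicle, and they share no library with LBL against LL or with each other.

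Microglia are the resident macrophages of the brain and depend on the receptor CSF1R for survival. BLZ945 blocks CSF1R, so that microglia are lost while it is given and refill the tissue after it is withdrawn. LPS, a component of the outer membrane of Gram-negative bacteria, is sensed by Toll-like receptor 4 and switches on cytokine and interferon genes, and macrophages that have met it before can respond differently to a later exposure. In ATAC-seq a transposase inserts sequencing adapters into open DNA, and the count in a peak reports how accessible a promoter or a more distant region was in the sorted cells. In a pool of cells, a change in the share of cells with an open region and a change in its opening per cell cannot be told apart.

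The LBL libraries held 1547545 and 1985467 rounded counts in peaks, and the LL libraries 2013926 and 2494980. The share of these counts in promoter peaks was 56.1% and 56.4% in LBL, against 56.1% and 55.5% in LL. Between the LBL libraries, counts varied within sampling noise (chi-square per degree of freedom 0.996, p = 0.662 over 26045 peaks), and the value for the LL pair was 1.05. The names of the LBL libraries give them different animals, and they were kept as 2 libraries. With the pair averaged into 1 library, 1 peak and 2 loci were called, in place of the 18 and 12 given below. Defining microglial genes were open in both groups: 7 of 8 had a tested locus, with summed levels of 1480 and 1365 CPM (counts divided by the TMM-scaled library total, times 1000000) in LBL and 1388 and 1438 CPM in LL, and none was called. PL 3_4 stood apart from its pair, with a chi-square per degree of freedom of 2.04 between the PL libraries, and it enters the estimate of the spread behind each test below.

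Repopulated and original microglia differed at few regions after the second LPS injection. Accessibility was higher in LBL at 2 regions of Cd36, a scavenger receptor that takes up long-chain fatty acids and oxidized lipoproteins, and at 2 intronic regions of Fbn2, which encodes the extracellular matrix protein fibrillin-2. It was lower in LBL at the promoter of Egr1, an immediate early transcription factor, and at a region upstream of Irf8, a transcription factor of microglial identity. In all, 18 autosomal peaks were called at an adjusted p under 0.05 (edgeR's quasi-likelihood test with Benjamini-Hochberg adjustment over all tested peaks), 0.049% of those tested. Of these, 9 were higher in LBL and 9 lower, 0.0245% of tested peaks in each direction. The fold differences ran between 1.43 and 5.52, and the median log2 fold change over all tested autosomal peaks was 0.00. At an unadjusted p under 0.05 there were 1497 peaks higher and 1467 lower in LBL, 8.06% of those tested. In every called peak the LBL libraries lay on one side of the LL libraries, as they did in 40.4% of all tested peaks. The count of called peaks was 68 without PL 3_4, with 39 higher and 29 lower, and those 68 included all 18. It was 7 without LBL 1_2, 2 without LBL 3_4, and 1 without LL 1_2 or without LL 3_4.

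Both tested peaks at Cd36 were called, and they held the smallest p of the comparison. The first, at chr5:17854438-17854984 in GRCm38/mm10, lies in an intron of Cd36 and 4646 bp upstream of the nearest annotated start site. Its level was 48.7 and 46.2 CPM in LBL, against 16.0 and 17.7 CPM in LL. The LBL libraries were close to each other and well above both LL libraries, a 2.79-fold difference (log2 fold change 1.48 ± 0.22 SE, edgeR adjusted p = 4.92e-06). This peak was called with any 1 of the 4 libraries left out, and its adjusted p was then at most 0.0105. The other peak, at chr5:17857325-17857600 and 7533 bp upstream of the start site, had 26.6 and 23.4 CPM in LBL, against 7.99 and 8.05 CPM in LL (log2 fold change 1.62 ± 0.28 SE, adjusted p = 5.85e-04). It was called in 2 of the 4 fits that left out a library, with an adjusted p of 0.0835 at most. No deposited peak overlapped the 300 bases around the start site that RefSeq's table gives for Cd36, 18292 bp from the first of these peaks.

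Both tested peaks of Fbn2 were called as well. They lie in intron 5 of 64 on chromosome 18, the one at position 58160647 to 58161083 and the other at 58161980 to 58162370, more than 38 kb downstream of the start site. The first had 20.8 and 22.8 CPM in LBL, against 7.99 and 7.24 CPM in LL (log2 fold change 1.52 ± 0.30 SE, adjusted p = 0.00929). The second had 11.7 and 18.3 CPM in LBL, against 3.99 and 5.63 CPM in LL (log2 fold change 1.64 ± 0.35 SE, adjusted p = 0.0286). LL was low at both, and the LBL pools differed from each other mainly at the second. Each was called in 1 of the 4 fits that left out an LBL or LL library, the one without LBL 1_2, with an adjusted p of at most 0.42 for the first and 0.704 for the second.

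The other 5 peaks higher in LBL were the only called ones at their genes. A peak at chr13:75773551-75773993, 11568 bp downstream of the start site of Ell2, which encodes an elongation factor of RNA polymerase II, had 19.5 and 16.2 CPM in LBL, against 7.99 and 4.83 CPM in LL (log2 fold change 1.49 ± 0.32 SE). A peak in an intron of Myo5a, an actin motor that carries vesicles, at chr9:75107490-75107773, showed the largest fold difference called, 5.52-fold, but rested on few counts: 14 and 13 reads in LBL, against 2 and 4 in LL. An intronic peak of R3hcc1l at chr19:42539781-42540189 had 26.0 and 33.5 CPM in LBL, against 9.48 and 17.3 CPM in LL, and the LL pools were wide apart. An intronic peak of Slc16a10, a transporter of aromatic amino acids, at chr10:40073702-40073920 had 9.75 and 11.7 CPM in LBL, against 2.99 and 3.22 CPM in LL. A peak at chr15:5872142-5872437, over 50 kb from any start site, had 13.0 and 11.2 CPM in LBL, against 4.99 and 2.41 CPM in LL. The adjusted p of these 5 lay between 0.0259 and 0.0479, and none was called in any of the 4 fits that left out an LBL or LL library. The other tested peak of R3hcc1l was at 0.51 on the log2 scale and both others of Myo5a at 0.44 and 0.48, the 8 others of Ell2 ran between -0.21 and 0.62, the 8 others of Slc16a10 between -0.63 and 0.31, and the 5 others assigned to 5430437J10Rik between -0.11 and 0.95. None of these passed the test.

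**Figure D1:**
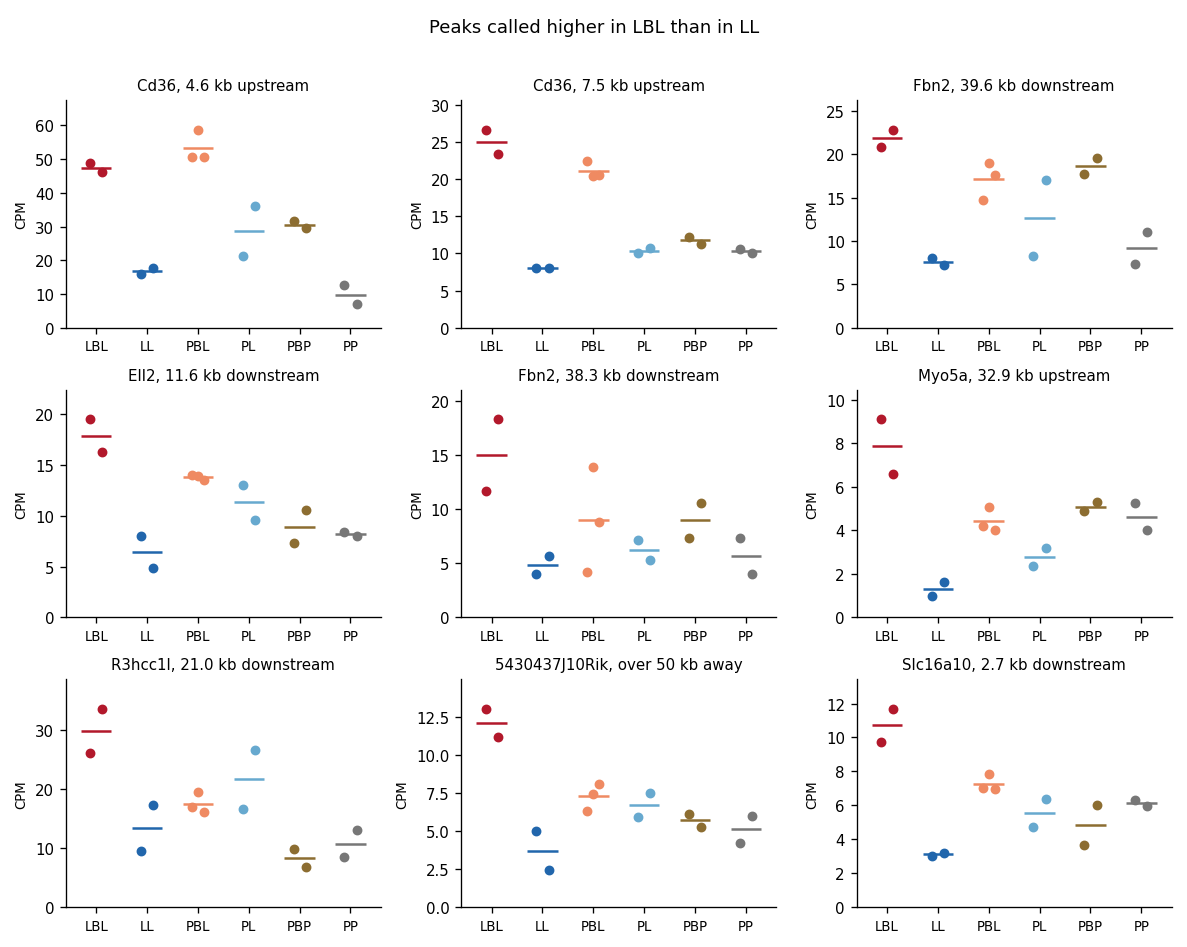
Accessibility of the 9 peaks called higher in LBL than in LL, in CPM on a linear axis from 0, for every library of the 6 groups (points) with the group mean (line). Panels name the nearest gene and the distance to its start site; the LBL points lie above the LL points in each panel, as at the Cd36 peak 4646 bp upstream with 48.7 and 46.2 CPM in LBL against 16.0 and 17.7 CPM in LL.

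Among the 9 peaks lower in LBL, the one with the highest level was the promoter of Egr1, which is transcribed within minutes of many stimuli. The peak on chromosome 18 at 34860458 to 34861720 spans the start site and had 103 and 106 CPM in LBL, against 157 and 142 CPM in LL, a 1.43-fold difference (log2 fold change -0.52 ± 0.11 SE, adjusted p = 0.0286). Its values in PBL, between 148 and 155 CPM, were close to those of LL. It had 126 and 112 CPM in PBP, against 142 and 170 CPM in PP (-0.39 ± 0.13 SE, adjusted p = 0.225). A peak at chr8:120716002-120716375, 19983 bp upstream of Irf8, had 7.15 and 8.12 CPM in LBL, against 19.0 and 20.1 CPM in LL (log2 fold change -1.34 ± 0.30 SE, adjusted p = 0.0376). The other 12 tested peaks assigned to Irf8 were not called and had log2 fold changes between -0.39 and 0.97.

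A peak on chromosome 18 at 36708666 to 36709294 was assigned to E230025N22Rik, 12741 bp away, and lies 15770 bp from Cd14, the co-receptor that hands LPS to Toll-like receptor 4. It had 35.7 and 33.0 CPM in LBL, against 64.9 and 63.6 CPM in LL (log2 fold change -0.91 ± 0.18 SE, adjusted p = 0.0121). In mice that had not met LPS before, this peak was higher after LPS in both arms, with log2 fold changes of 1.27 in PL against PP (adjusted p = 3.25e-05) and 1.33 in PBL against PBP (adjusted p = 2.12e-08). The LBL values lay between the 22.6 and 28.1 CPM of PBP and the 56.5 to 74.9 CPM of PBL. Without PL 3_4 the log2 fold change in PL against PP was 0.86 (adjusted p = 0.0593). PBL and PBP were sorted on different instruments and days, and these cannot be told apart from LPS in that comparison.

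An intronic peak of Rcan1, an inhibitor of calcineurin, at chr16:92443610-92444014 had 12.3 and 8.12 CPM in LBL, against 27.5 and 24.1 CPM in LL (log2 fold change -1.35 ± 0.27 SE, adjusted p = 0.0121). A peak 39752 bp downstream of Pfkfb3, which makes an allosteric activator of glycolysis, at chr2:11441624-11442359 had 29.9 and 23.4 CPM in LBL, against 51.9 and 46.7 CPM in LL. An intronic peak of Ank2, which encodes a membrane-cytoskeleton adaptor, at chr3:127035250-127036043 had 17.5 and 19.3 CPM in LBL, against 36.4 and 38.6 CPM in LL. LBL stood alone at the Ank2 peak, since all 9 libraries of the other groups than LL held 27.3 CPM or more. The last 3 were an intronic peak of Slc44a5, a gene of the choline transporter-like family, at chr3:154177738-154178325 (10 and 15 reads in LBL, against 42 and 49 in LL), a peak nearest to Jmjd1c but inside its neighbour Reep3, at chr10:67071896-67072310 (14.3 and 7.11 CPM in LBL, against 25.5 and 24.1 CPM in LL), and an intronic peak of the forkhead factor gene Foxn3 at chr12:99390797-99391045 (3.90 and 2.03 CPM in LBL, against 13.0 and 9.66 CPM in LL). The Foxn3 peak held 6 and 4 reads in LBL, against 26 and 24 in LL. Of these 9 peaks, only those of Rcan1 and Jmjd1c were called in any of the 4 fits that left out a library, in 1 fit each, the one without LBL 1_2.

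**Figure D2:**
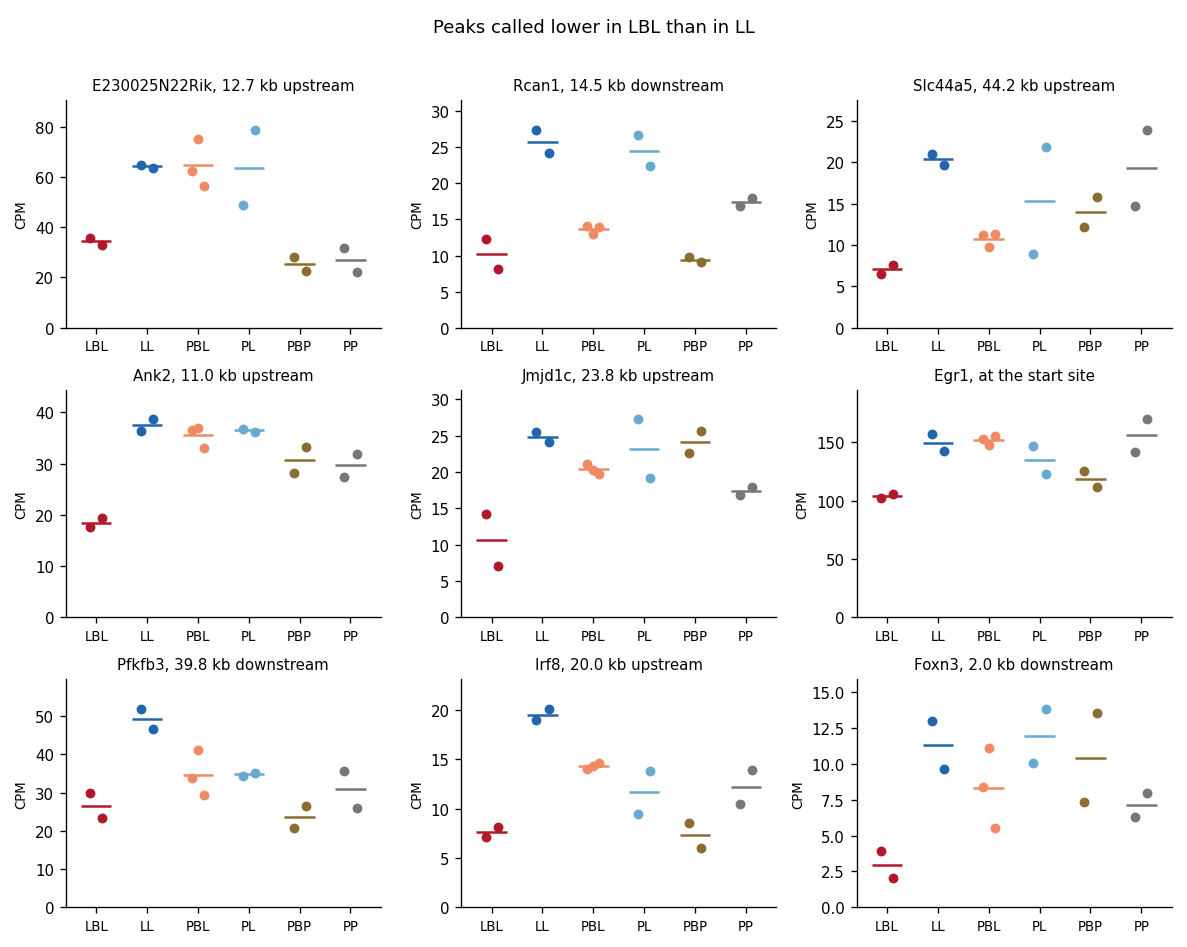
Accessibility of the 9 peaks called lower in LBL than in LL, in CPM on a linear axis from 0, for every library of the 6 groups (points) with the group mean (line). The LBL points lie below the LL points in each panel; at the Ank2 peak, 17.5 and 19.3 CPM in LBL are also below every library of the other 5 groups.

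The called peaks were mostly away from promoters. By the deposited annotation 13 of the 18 were intronic, 4 distal intergenic and 1 in a promoter, within 1 kb of a start site. Over all tested autosomal peaks 36.5% were in promoters, 31.5% in introns and 24.4% in distal intergenic regions. The median distance to the nearest start site was 17222 bp for the called peaks and 4675 bp for all tested peaks, and the median levels over LBL and LL were 15.6 CPM for the called peaks and 18.1 CPM for all tested.

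The same depletion contrast in other mice gave similar values at some of these peaks. The Cd36 peak 4646 bp upstream was also called in PBP against PP, with 31.7 and 29.4 CPM in PBP, against 12.6 and 6.99 CPM in PP (log2 fold change 1.65 ± 0.34 SE, adjusted p = 0.0052). It was called in PBL against PL too, with 50.6, 58.8 and 50.6 CPM in PBL, against 21.3 and 36.2 CPM in PL (0.87 ± 0.18 SE, adjusted p = 0.0205). It was thus higher after BLZ945 with no LPS, after 1 LPS injection and after 2, and LPS was followed by higher values in both arms, with log2 fold changes of 1.57 in PL against PP (adjusted p = 5.71e-04; 1.12 and 0.148 without PL 3_4) and 0.80 in PBL against PBP (adjusted p = 0.00107). The Cd36 peak 7533 bp upstream had 12.2 and 11.3 CPM in PBP, against 10.5 and 9.98 CPM in PP, with an adjusted p of 0.917. In PBL it had 22.5, 20.4 and 20.5 CPM, against 10.1 and 10.7 CPM in PL (1.01 ± 0.26 SE, adjusted p = 0.0871). Its values were high in the depleted groups given LPS and near the PP level elsewhere, but neither difference between depletion contrasts passed the test (adjusted p = 0.462 against the PBS pair and 0.799 against the single-LPS pair).

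Of the 18 peaks, 13 had the same sign in PBP against PP and 14 in PBL against PL, that is 72.2% and 77.8%, against 52.5% and 54.1% of all tested peaks. The Cd36 peak 4646 bp upstream was the 1 of the 18 called higher in each of these comparisons, where 0.0653% of tested peaks were called higher in PBP and 0.0626% in PBL. None of the 18 was called lower there, where 0.0544% of tested peaks were lower in PBP and 0.0218% in PBL. Across all 36769 peaks, Pearson's r of the log2 fold changes of LBL against LL was 0.0755 with those of PBP against PP and 0.125 with those of PBL against PL, over peaks that share libraries and depth. PBL and PL were sorted on different instruments, and sorter and treatment cannot be told apart there.

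**Figure D3:**
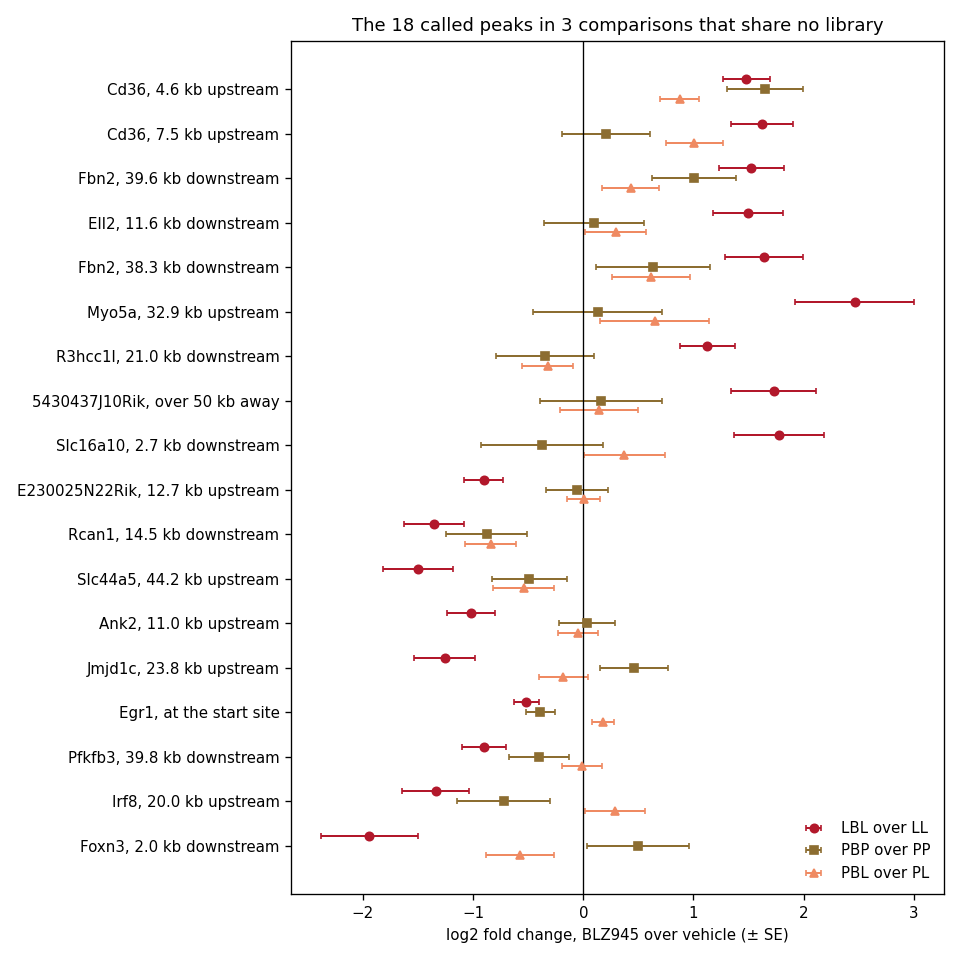
Log2 fold change of BLZ945 over vehicle (horizontal axis, ± SE) for the 18 called peaks (rows) in LBL over LL, PBP over PP and PBL over PL, which share no library. The 2 Cd36 and 2 Fbn2 peaks and those of Ell2, Myo5a and 5430437J10Rik are above 0 in all 3 comparisons. The Rcan1, Slc44a5 and Pfkfb3 peaks are below 0 in all 3, and some of these values are smaller than their SE. Without PL 3_4, which stood apart from its pair, the Slc44a5 peak is at 0.27 in PBL over PL, and those of Rcan1 and Pfkfb3 at -0.97 and -0.01. The Egr1 peak is at -0.52 in LBL over LL, -0.39 in PBP over PP and 0.18 in PBL over PL.

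When the counts of all peaks within 50 kb of a gene's start site were summed to a locus, 12 of 13365 autosomal loci were called, 0.0898% of those tested, and all 12 were higher in LBL. At an unadjusted p under 0.05 there were 489 loci higher and 541 lower, so that the one-sidedness was seen only among the called loci; without PL 3_4 the calls were 19 higher and 17 lower. The locus counts were 7, 2, 3 and 2 without LBL 1_2, LBL 3_4, LL 1_2 and LL 3_4. Cd36 led with 81.9 and 75.0 CPM in LBL, against 26.0 and 28.2 CPM in LL (log2 fold change 1.52 ± 0.17 SE, adjusted p = 7.71e-09), followed by Fbn2 with 35.3 and 44.3 CPM in LBL, against 13.0 and 14.1 CPM in LL (1.56 ± 0.24 SE, adjusted p = 5.06e-05). Cd36 was the only locus called in all 4 fits that left out an LBL or LL library.

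Several of these loci summed small differences that pointed the same way at every peak. The loci were called on sums of these same peaks, so the shared direction follows in part from the call and is no separate support. At Atp10a, a phospholipid flippase gene, all 3 tested peaks were higher in LBL and none was called alone. The Atp10a locus had 100 and 102 CPM in LBL, against 58.5 and 54.6 CPM in LL (log2 fold change 0.84 ± 0.14 SE, adjusted p = 4.35e-04). At Ablim1, an actin-binding protein gene, all 11 tested peaks had positive log2 fold changes, and the locus had 232 and 191 CPM in LBL, against 159 and 141 CPM in LL (0.49 ± 0.10 SE). At Kcnj2, which encodes the inwardly rectifying potassium channel Kir2.1, all 6 peaks did, with 115 and 149 CPM in LBL, against 94.3 and 85.0 CPM in LL (0.58 ± 0.12 SE). At Mefv, the gene of the inflammasome sensor pyrin, all 4 did, with 71.3 and 70.6 CPM in LBL, against 41.2 and 45.4 CPM in LL (0.71 ± 0.16 SE, adjusted p = 0.0492). Xylt1, which starts glycosaminoglycan chains on proteoglycans, was positive at 6 of 7 peaks, with 165 and 178 CPM in LBL, against 111 and 123 CPM in LL. Other called loci were R3hcc1l (0.68), the adhesion molecule gene Alcam (0.66), the cell polarity gene Pard3 (0.77) and Gm12610 (1.71), whose locus summed 2 peaks, of which 1 was tested, to 14.1 and 17.5 CPM in LBL, against 4.33 and 5.29 CPM in LL.

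Of the 12 loci, 5 were also called higher in PBL against PL, where 0.172% of loci were called higher. Among them were Cd36, Atp10a, Xylt1 and Alcam, the 4 that were still called without PL 3_4. Atp10a had 95.9, 111 and 96.4 CPM in PBL, against 56.1 and 56.0 CPM in PL (log2 fold change 0.85 ± 0.13 SE, adjusted p = 2.34e-04), nearly the same levels as in LBL and LL. Alcam had 84.9, 98.0 and 104 CPM in PBL, against 58.6 and 68.5 CPM in PL (0.61 ± 0.13 SE, adjusted p = 0.0144). All 12 were above 0 in PBL against PL, and 11 of 12 in PBP against PP, against 56.6% and 51.7% of all loci that were above 0 in LBL against LL. None of the 12 was called in PBP against PP, where 0.0524% of loci were called higher and the nearest were Cd36 with 1.08 ± 0.26 SE (adjusted p = 0.051) and Xylt1 with 0.59 ± 0.15 SE (adjusted p = 0.0518). Mefv was the locus below 0 there (-0.26).

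**Figure D4:**
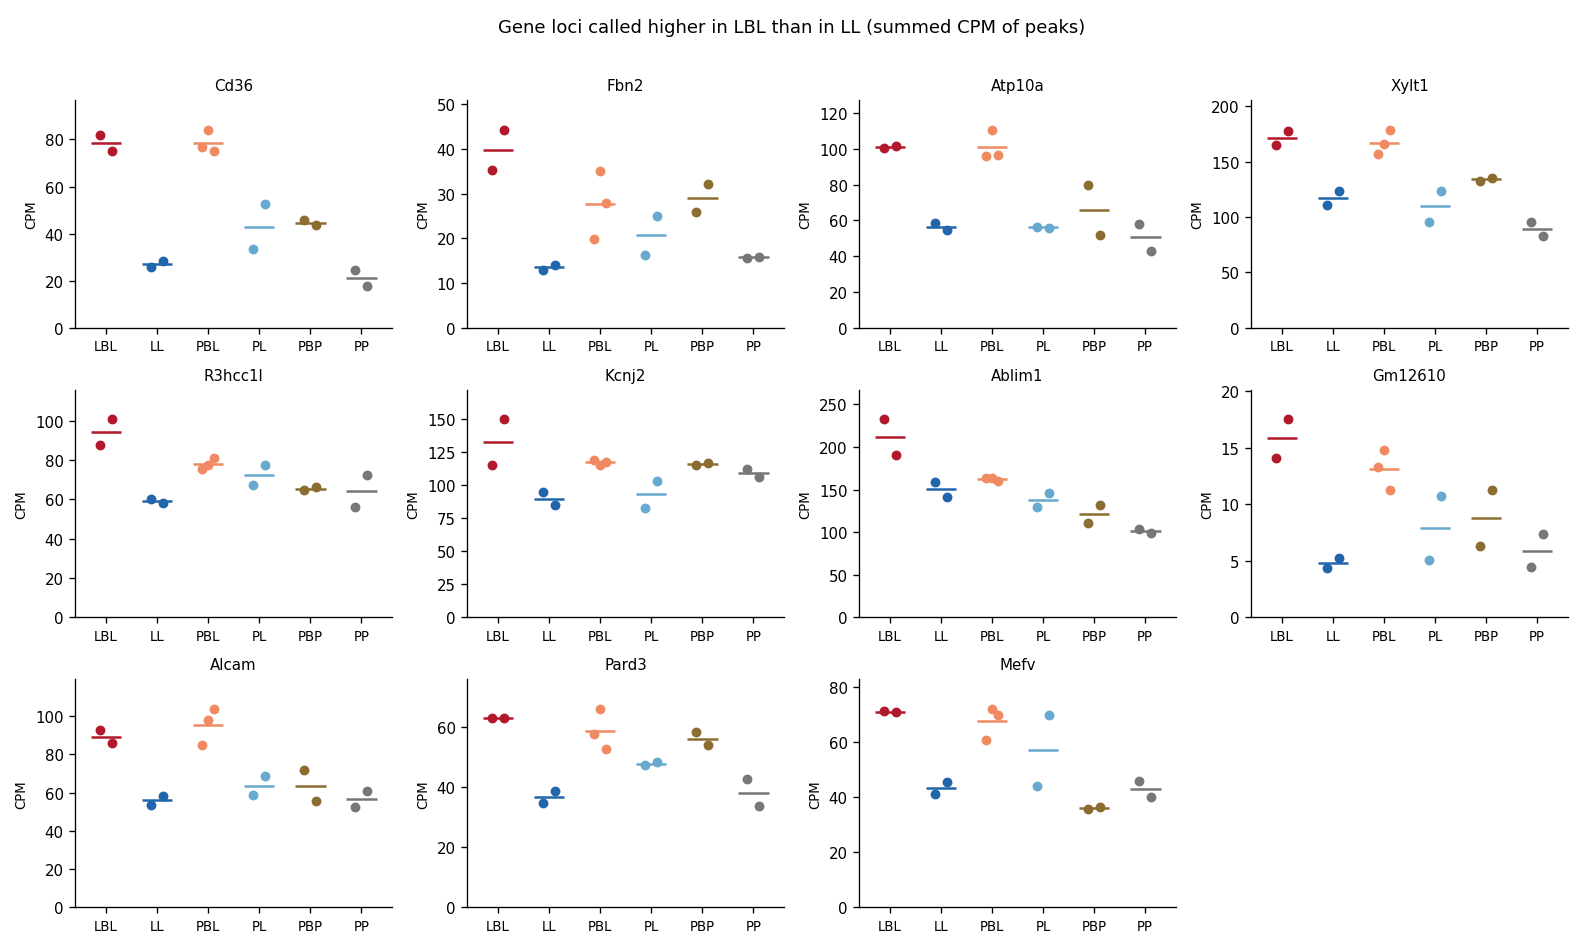
Summed CPM of the peaks within 50 kb of the start site (vertical axis, linear from 0) at 11 of the 12 loci called higher in LBL than in LL, for every library of the 6 groups (points) with the group mean (line). Atp10a, Xylt1, Alcam and Cd36 show high values in both LBL and PBL, while R3hcc1l and Ablim1 are highest in LBL.

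The start-site peaks of Atp10a, Alcam and Kcnj2 had higher values in LBL, and the promoter sequences under these peaks are shown to place the measurement. That of R3hcc1l was also higher (log2 fold change 0.51 ± 0.17 SE, edgeR adjusted p = 0.361), and its sequence is not shown. RefSeq's table for GRCm38.p6 held a window of 250 bases before to 50 after the start for 9 of the 12 loci, and at 5 of them, Atp10a, Kcnj2, Alcam, R3hcc1l and Gm12610, it overlapped a tested peak. The peak over the Gm12610 window was not the tested peak of that locus. Its log2 fold change was 0.07 (edgeR adjusted p = 0.956). The Atp10a window, chr7:58657952-58658251 on the plus strand, lies under a peak with 26.0 and 26.4 CPM in LBL, against 14.0 and 12.1 CPM in LL (log2 fold change 1.02 ± 0.26 SE, adjusted p = 0.0954). The Alcam window, chr16:52453032-52453331 on the minus strand, lies under a peak with 57.2 and 53.8 CPM in LBL, against 33.9 and 33.0 CPM in LL (0.73 ± 0.18 SE, adjusted p = 0.0799). The Kcnj2 window, chr11:111065914-111066213 on the plus strand, lies under a peak with 39.6 and 62.5 CPM in LBL, against 31.9 and 33.0 CPM in LL (0.68 ± 0.18 SE, adjusted p = 0.15). None of the 3 peaks was called on its own. Each sequence runs 5′ to 3′ on the gene's strand, and capitals mark matches to GGGCGG (KLF/SP) or CCAAT (NFY) on either strand.
Atp10a: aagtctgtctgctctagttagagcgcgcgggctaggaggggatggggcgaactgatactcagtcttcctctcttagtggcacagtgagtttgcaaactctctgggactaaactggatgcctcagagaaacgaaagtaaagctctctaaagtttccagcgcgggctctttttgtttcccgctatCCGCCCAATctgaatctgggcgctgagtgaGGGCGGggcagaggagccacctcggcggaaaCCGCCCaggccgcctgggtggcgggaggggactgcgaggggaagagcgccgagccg
Alcam: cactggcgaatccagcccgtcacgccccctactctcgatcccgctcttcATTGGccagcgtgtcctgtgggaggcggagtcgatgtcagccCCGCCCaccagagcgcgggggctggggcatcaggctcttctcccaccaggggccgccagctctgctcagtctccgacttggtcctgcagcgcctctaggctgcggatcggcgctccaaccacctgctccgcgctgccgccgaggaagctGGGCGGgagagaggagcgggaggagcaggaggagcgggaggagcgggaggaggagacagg
Kcnj2: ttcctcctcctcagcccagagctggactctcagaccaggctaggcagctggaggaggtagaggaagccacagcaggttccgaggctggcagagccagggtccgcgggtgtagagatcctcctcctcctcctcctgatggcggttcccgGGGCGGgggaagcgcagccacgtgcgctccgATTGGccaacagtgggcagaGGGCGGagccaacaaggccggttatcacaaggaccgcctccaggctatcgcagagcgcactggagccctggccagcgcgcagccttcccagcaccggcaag

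These windows were GC-rich, at 59.3%, 69.7% and 66.7% for Atp10a, Alcam and Kcnj2. All 3 held GGGCGG and CCAAT, which were present in 67.1% and 38.8% of the 11034 RefSeq windows of this length over a tested autosomal peak. The R3hcc1l window held GGGCGG but no CCAAT. The other letters searched, on both strands and with matches allowed to overlap those of another motif, were TGANTCA (AP-1), GGAAGT (PU.1/ETS), TTGCNNAA (C/EBP), ACANNNTGT (glucocorticoid response element), TGTGGT (RUNX), TGCTGA (MAF), CAGACA (SMAD) and CACGTG (E-box). Motifs with a spacer were GAAA and GAAA with 2 bases between them (IRF), GGG and CC with 5 (NF-kB), CTA and TAG with 4 (MEF2), and CCA, AG and GGC with 2 between each (CTCF). Of these, the Kcnj2 window held those of NF-kB (69.7% of windows), E-box (10.9%) and CTCF (3.26%), and the Atp10a window held CAGACA (14.9%). The AP-1, PU.1/ETS and IRF motifs, present in 4.4%, 30.7% and 3.02% of windows, were in none of the 5 windows, nor were those of C/EBP (7.85%), MEF2 (2.76%), the glucocorticoid response element (3.5%), RUNX (11.8%) and MAF (14.5%).

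Among 24 gene lists for pathways and cell types, Cd36 was the only locus called, against 0.0898% of all loci tested. The list whose values leaned furthest to one side was that of AP-1 and immediate early genes, which are transcribed shortly after a stimulus without new protein synthesis. Of its 22 tested loci, 20 had lower values in LBL, 90.9% against 50.1% of all loci, with a median log2 fold change of -0.16, against 0.00 over all loci. No locus of the list was called, and 8 had an unadjusted p under 0.05, all on the lower side. These were 36.4% of the list, against 7.71% of all autosomal loci, counting both directions. The summed level over the list was 4353 and 4324 CPM in LBL, against 4847 and 4779 CPM in LL. The libraries of the groups did not overlap, which was also so in other lists. Microglial transcription factors, for example, summed to 5538 and 5601 CPM in LBL, against 5816 and 5831 CPM in LL. Between 19 and 20 loci were below 0 with median-ratio factors, library totals or loess offsets, and between 18 and 21 with 1 LBL or LL library left out. In PBP against PP 14 of the 22 were below 0 (median -0.04), and in PBL against PL 11 (-0.01).

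Fosb, an AP-1 subunit, had 159 and 131 CPM in LBL, against 195 and 188 CPM in LL (log2 fold change -0.41 ± 0.11 SE, adjusted p = 0.137). The orphan nuclear receptor gene Nr4a2 had 56.5 and 50.4 CPM in LBL, against 81.3 and 78.4 CPM in LL (-0.59 ± 0.15 SE, adjusted p = 0.144). Both passed the test without PL 3_4 (adjusted p = 0.0182 and 0.0294). Egr1, whose promoter peak was called, had a locus value of -0.27 ± 0.09 SE (adjusted p = 0.37), with 328 and 341 CPM in LBL, against 412 and 397 CPM in LL. Batf3 and Nr4a3 were the loci above 0, at 0.06 and 0.01.

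**Figure D5:**
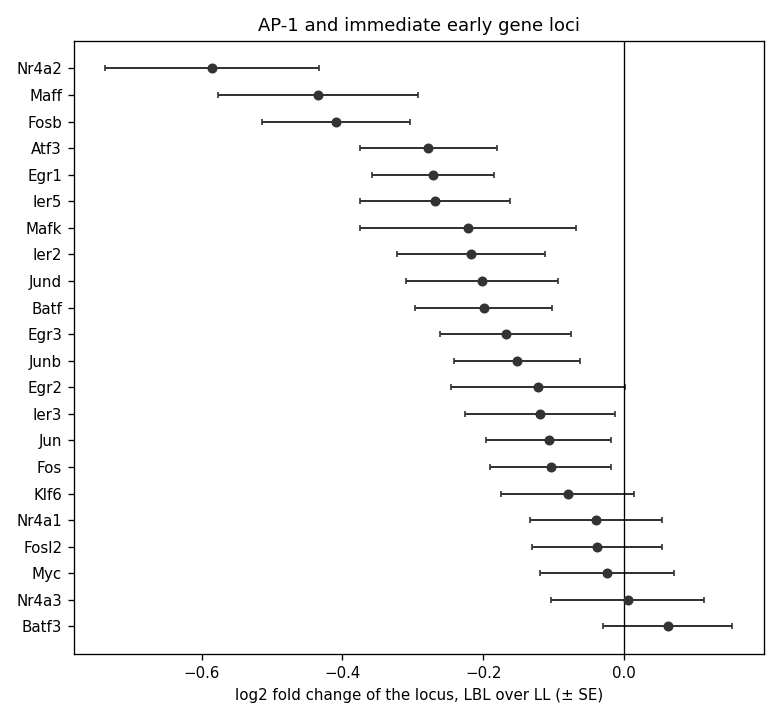
Log2 fold change of LBL over LL (horizontal axis, ± SE) for the 22 tested loci of AP-1 and immediate early genes (rows). Of these, 20 lie below 0, down to Nr4a2 at -0.59, and none passed the adjusted threshold.

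Loci of inflammatory genes showed no called difference. Of 30 tested loci of cytokines and NF-kB targets, 18 were below 0 (median -0.07), with 2 higher and 5 lower at an unadjusted p under 0.05. These made up 23.3% of the list, against 7.71% of all autosomal loci. Tnf had 48.7 and 55.8 CPM in LBL, against 67.7 and 73.1 CPM in LL (-0.42 ± 0.16 SE, adjusted p = 0.525). Il1b had 150 and 160 CPM in LBL, against 192 and 177 CPM in LL (-0.24 ± 0.10 SE, adjusted p = 0.579), and the chemokine gene Ccl3 had 78.4 and 86.0 CPM in LBL, against 103 and 107 CPM in LL (-0.35 ± 0.12 SE, adjusted p = 0.48). At Tnf, Il1b, Ccl3 and Ccl4 both LBL libraries were below both LL libraries, while the differences missed the threshold. Over all tested peaks, taken singly, the libraries of the groups lay apart in 40.4%, counting both directions. The matching share over loci is not given here. Ccl5, an interferon-responsive chemokine gene, went the other way, with 129 and 130 CPM in LBL, against 104 and 94.7 CPM in LL (0.38 ± 0.12 SE, adjusted p = 0.34). Ccl2 (0.03), Ccl4 (-0.22), the NF-kB inhibitor gene Nfkbia (-0.01), Acod1 (-0.02) and the feedback inhibitor gene Socs3 (0.04) were not called.

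In the interferon-stimulated list, 16 of 25 loci were above 0 (median 0.05); Ifit3 and Irf7 were at 0.08 and -0.05, and the smallest p values were those of Mx1 (0.44, adjusted p = 0.632) and Irf9 (-0.32, adjusted p = 0.648). Negative regulators of LPS signalling had a median of -0.03 over 25 loci, with the phosphatase genes Dusp1 and Dusp2 at -0.24 and -0.26. Among glucocorticoid targets, Fkbp5 and Zbtb16 differed little (-0.04 and 0.02), and Cebpd, a C/EBP factor gene that LPS induces, was at 0.22 (adjusted p = 0.564). In the circadian list 12 of 18 loci were above 0, led by the repressor gene Bhlhe40 with 60.0 and 54.8 CPM in LBL, against 39.5 and 39.2 CPM in LL (0.54 ± 0.17 SE, adjusted p = 0.335). Hlf, a clock-controlled PAR bZIP factor gene, was at 0.37 (adjusted p = 0.413).

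Loci of microglial identity were close in both groups. Of 28 homeostatic surface and lysosome loci, 17 were above 0 (median 0.04), and log2 fold changes ran between -0.28 and 0.21. P2ry12, a purinergic receptor gene of homeostatic microglia, had 290 and 252 CPM in LBL, against 303 and 318 CPM in LL (-0.20 ± 0.10 SE, adjusted p = 0.632). Tmem119 (0.18), the transcription factor gene Sall1 (0.10) and Csf1r, the target of BLZ945 (0.03), had overlapping libraries, and none was called. Gas6, a ligand of TAM receptors, was at the low end of the list with 98.2 and 102 CPM in LBL, against 131 and 115 CPM in LL (-0.28 ± 0.12 SE, adjusted p = 0.546). Of 22 microglial transcription factor loci 15 were below 0, with a median of -0.05. In the list of CSF1 and growth factor receptor signalling the phosphatase gene Inpp5d was at -0.23 (adjusted p = 0.49) and Igf1r at -0.31 (adjusted p = 0.263; called without PL 3_4, adjusted p = 0.043). In the lipid list, Lipa, the lysosomal acid lipase gene, was at 0.43 (adjusted p = 0.187; 0.0391 without PL 3_4), and the median over its 23 loci was 0.03.

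Remaining lists held no called locus and had medians close to 0. Disease-associated microglia genes had a median of -0.01 over 24 loci, with Cd68 at 0.35 and Csf1 at -0.31. TGF-beta and SMAD genes had a median of -0.03 over 21 loci, with Skil at -0.24 and Smurf1 at -0.31. Antigen presentation genes had a median of -0.02 over 19 loci (Cd274 at 0.51, H2-K1 at -0.27), glycolysis, HIF and mTOR genes -0.01 over 22 (Vegfa at -0.71, Pfkfb3 at -0.14), cell cycle genes 0.01 over 24 (Ccnd3 at -0.20, Ccnb1 at 0.38), and histone and DNA methylation modifiers -0.01 over 24 (Dnmt3a at -0.19, Setd2 at 0.27).

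Among markers of other cells in or near the gate only Cd36 was called, and some summed levels lay apart between the groups. Both LBL libraries were above both LL libraries for border or bone-marrow-derived macrophages, and below them for neutrophils, oligodendrocytes, neurons and the lymphocyte marker tested. Monocyte, astrocyte, and endothelial and mural sums overlapped. Of 8 markers of border or bone-marrow-derived macrophages 6 had a tested locus, with summed levels of 293 and 315 CPM in LBL, against 226 and 238 CPM in LL, and Cd36, which is on that list, was the one called. Lyve1 and Apoe had no tested locus. Ms4a7 and Clec12a, which mark such macrophages, had log2 fold changes of -0.09 and -0.01 and levels of 8.48 to 15.9 CPM in LBL and 10.8 to 16.3 CPM in LL. Mrc1, Cd163 and F13a1, also on that list, were above 0, at 0.20, 0.12 and 0.16, and were not called. Summed monocyte markers (2 of 5 tested) stood at 141 and 116 CPM in LBL, against 119 and 118 CPM in LL. Among them, Ly6c2 and Chil3 had no tested locus, and Ccr2 had 21.2 and 20.8 CPM in LBL, against 23.3 and 18.9 CPM in LL. Summed neutrophil markers (2 of 5 tested) stood at 20.5 and 19.7 CPM in LBL, against 29.3 and 36.6 CPM in LL. Of these, S100a8, Retnlg and Mmp8 had no tested locus, while Cxcr2 had 13.4 and 13.1 CPM in LBL, against 24.4 and 29.1 CPM in LL (-1.02 ± 0.25 SE, adjusted p = 0.0947; called without PL 3_4, adjusted p = 0.0291). The other tested neutrophil marker, S100a9, was at 0.10, with 7.06 and 6.57 CPM in LBL, against 4.88 and 7.49 CPM in LL. In the longer neutrophil list, 4 of 6 loci were above 0. Of 6 lymphocyte markers only Cd4 had a tested locus, with 4.24 and 1.10 CPM in LBL, against 7.04 and 6.61 CPM in LL. Summed levels were 302 and 284 CPM in LBL and 307 and 328 CPM in LL for oligodendrocyte markers (2 of 5 tested), 255 and 260 CPM in LBL and 256 and 265 CPM in LL for endothelial and mural markers (5 of 5), and at most 40.5 CPM in any of the 4 libraries for neuron (2 of 5) and astrocyte markers (1 of 5). None of these was called. Over the longer marker lists of the same cell types Cd36 was again the one called locus, and the loci with the smallest p in each were Vcan (0.39) and Treml4 (-0.34) for monocytes, Cxcr2 and Csf3r (0.15) for neutrophils, Cd4 and Lck (-0.30) for lymphocytes, Mobp (0.59) and Mbp (-0.15) for oligodendrocytes, S100b (0.31) and Slc4a4 (-0.09) for astrocytes, Camk2a (-0.39) and Rbfox3 (-0.55) for neurons, and Acta2 (0.84) and Pdgfrb (-0.62) for endothelial and mural cells. What part other cells have in the called peaks was not tested.

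Regions that open on LPS were compared as a group. Over the 943 autosomal peaks called higher after LPS in mice not exposed before, in both PL against PP and PBL against PBP, the median log2 fold change of LBL against LL was -0.03, with 45.1% above 0, against 50.5% of all tested peaks. LPS-associated calls alone covered, of all tested peaks, 4.78% higher with 2.68% lower for PL against PP, and 6.82% higher with 3.24% lower for PBL against PBP. Without PL 3_4 the peaks called higher in PL against PP numbered 498, in place of 1759. Of the 943, 1 was called higher in LBL, the Cd36 peak 4646 bp upstream, and 1 lower, the peak near E230025N22Rik and Cd14. In each direction, 0.0245% of all tested peaks were called. At an unadjusted p under 0.05 there were 44 of the 943 higher and 60 lower in LBL, 11.0% together, against 8.06% of all tested peaks. Over the 145 peaks called lower after LPS in both arms the median was -0.00 and none was called. Of these, 9.66% had an unadjusted p under 0.05. With so low a share of calls over all tested peaks, the absence of calls among 145 says little.

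Whether depletion acted differently after 2 LPS injections was tested as a difference between contrasts. Against PBP and PP, 3 autosomal peaks were called, 0.00816% of those tested, all with a more positive value in LBL against LL. The count was 0 with DESeq2, 1 with limma, 19 without PL 3_4, 4 without LL 1_2, 1 without LBL 1_2, and 0 without LBL 3_4, without LL 3_4 or without any 1 of the PBP and PP pools. They were an exonic peak nearest to Gm8579 at chr6:3182420-3183998, an exonic peak of 5430437J10Rik at chr15:5539389-5539930 and an intergenic peak 53066 bp from Frmd4a at chr2:3964459-3964651. At the first, LBL had 27.3 and 36.6 CPM and LL 24.0 and 23.3 CPM, while PBP had 39.1 and 36.2 CPM and PP 82.0 and 83.8 CPM; the largest contrast was between PBP and PP. None of the 3 was called in LBL against LL itself (adjusted p = 0.61, 0.292 and 0.508), and none of the 18 called peaks was among them. Against PBL and PL no autosomal peak was called by edgeR, DESeq2 or limma, and 2554 had an unadjusted p under 0.05, 6.95% of those tested, with 493 by DESeq2 and 1872 by limma. Without PL 1_2 the count by edgeR was 70, and without PL 3_4 it was 1. The smallest adjusted p was 0.167, that of the Egr1 promoter, with a difference of -0.70 ± 0.15 SE on the log2 scale.

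Another 31 autosomal peaks, 20 higher and 11 lower in LBL, had an adjusted p between 0.05 and 0.1. They included the start-site peak of Lipa, with 69.5 and 68.0 CPM in LBL, against 33.9 and 52.7 CPM in LL, and a peak 53401 bp from Ch25h, which makes an oxysterol, with 28.6 and 31.5 CPM in LBL, against 19.0 and 12.9 CPM in LL. On the lower side they included a peak upstream of Sirpa, the receptor for the "don't eat me" signal CD47, with 46.8 and 49.8 CPM in LBL, against 71.4 and 82.1 CPM in LL, and an intronic peak of Scarb1, another scavenger receptor gene, with 3.90 and 5.59 CPM in LBL, against 12.0 and 14.5 CPM in LL. These 4 were picked after their values were seen. The median SE of the log2 fold change over tested peaks was 0.26, and a difference had to be several times its SE to be called. The called peak with the largest adjusted p, that of Slc16a10, was at 1.77 ± 0.41 SE (edgeR adjusted p = 0.0479). Peaks and loci that were not called may therefore still differ by more than 1 SE.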

How the data were processed

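ATAC-seq was run on 13 pools of sorted mouse microglia. The authors deposited 1 table of peaks with their annotation and, for each library, an expected count per peak, values that are not normalized and, from the values, come in steps of 0.5. Per the submitters' processing notes the genome was GRCm38/mm10, and the tools named are MACS2 2.1.1, HOMER 4.9.1 and ChIPseeker 1.38 for peaks, Bowtie2 2.2.6, cutadapt 1.9.1, Picard 1.126 and SAMtools 1.7 for reads, and deepTools 3.3.0 and bedtools 2.26. The counter, and any shift of read ends for the transposase, are not given in the sources used here. Distances to start sites, in base pairs, are the authors' as deposited. Libraries held 927840 to 2772688 rounded counts; PL 3_4 and PL 1_2 differed most (chi-square per degree of freedom 2.04).

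Here counts were rounded to whole numbers (R 4.3.3) and tested with edgeR 4.0.16: TMM scaling, filterByExpr with a minimum count of 10, and a robust quasi-likelihood F test on 6 group means over 13 libraries. Benjamini-Hochberg adjustment ran over all 37516 tested peaks or 13729 tested loci, and a call is an adjusted p under 0.05. A locus sums the peaks whose nearest start site is within 50 kb. SE is the log2 fold change divided by the root of F. DESeq2 1.42.0 and limma 3.58.1 (log2 CPM, prior count 2) were alternatives. By their names PBL 3_4 and PBL 4_5 share an animal, and p-values measure the spread between pools. The fit was also run on simulated counts. These had the same dispersion in every library and no deviating pool, so they do not cover a library such as PL 3_4.

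Named were all called autosomal peaks of LBL against LL (at most 12 per direction), all called loci, per list up to 2 called loci in each direction or else the 2 with the smallest p, 20 genes (19 had a tested locus; Apoe had none), and the called peaks of each difference between contrasts. The genes, lists and tests were chosen with earlier results of these data known. Same-numbered pools did not deviate together (r = -0.00174 between LBL and LL), so numbers do not pair them. Sequences come from RefSeq's promoter table for GRCm38.p6; sequences of the called peaks were not used here. One called locus is not reported here.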

Additional observations from a re-analysis of the deposited data

Results flagged for a closer look

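At 3 autosomal peaks the depletion contrast after 2 LPS injections differed from that after PBS only, by edgeR's test of the difference itself (LBL against LL minus PBP against PP). The difference on the log2 scale was 1.59 at the peak nearest to Gm8579 (adjusted p = 0.00661), from 0.45 in LBL against LL and -1.13 in PBP against PP. It was 2.79 at the exonic peak of 5430437J10Rik (adjusted p = 0.0253), where LBL had 18.8 and 15.2 CPM and LL 7.49 and 9.66 CPM, while PBP had 2.44 and 4.53 CPM and PP 10.5 and 14.0 CPM. It was 1.82 at the peak 53066 bp from Frmd4a (adjusted p = 0.0402), where LBL had 17.5 and 16.2 CPM and LL 12.0 and 8.85 CPM, while PBP had 16.5 and 21.9 CPM and PP 43.1 and 38.9 CPM. LBL and LL were sorted on another instrument than PBP and PP, and no 2 of these 4 groups shared an isolation day; the part of instrument and day in these differences was not tested. The count of 3 was 0 with DESeq2, 1 with limma and 0 to 19 with 1 library left out.

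Outside the autosomes, a peak assigned to Mid1 at chrX:170009026-170010219 was called lower in LBL, with a log2 fold change of -0.53 (adjusted p = 0.0259). It had 123 and 95.5 CPM in LBL, against 155 and 157 CPM in LL. The same peak was lower in PBP, with 154 and 199 CPM, against 257 and 271 CPM in PP (adjusted p = 9.07e-04).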

How the results depend on the processing

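No called value reversed its direction under any alternative, while uncalled loci near 0, such as Tmem119 (0.18, and -0.01 without LBL 1_2) and Sall1 (0.10, and -0.02 without LL 3_4), changed sign. The 18 called peaks became 1 with DESeq2, 2 with limma, 34 with TMM factors computed separately for promoter and other peaks, 11 with a minimum count of 30, 92 in a fit of the LBL and LL libraries alone, 1 with the LBL pair averaged, 9 with counts doubled, 0 with libraries thinned to equal totals, and 1 to 68 with 1 library left out, the highest without PL 3_4. The 12 called loci became 2 with DESeq2, 3 with limma, 89 in the fit of LBL and LL alone, 2 with the LBL pair averaged, 1 after thinning, 2 with peaks within 10 kb, 0 with peaks within 1 kb, and 2 to 36 with 1 library left out. The 3 peaks that differed from PBP against PP became 0 with DESeq2 (809 at an unadjusted p under 0.05), 1 with limma, 5 with median-ratio factors, 5 with no filter, 0 with the LBL pair averaged, and 0 to 19 with 1 library left out. Against PBL and PL the count stayed at 0 except without PL 1_2 (70) and without PL 3_4 (1), a range of 0 to 70. A pool left alone in its group is assumed to vary like the other groups. All fits not named DESeq2 or limma used edgeR. With the pool number as a replicate block the counts were 35 peaks, 16 loci, 15 and 0 for the differences; the numbers do not pair the pools. Of the values of single called peaks and loci under the alternatives, 212 and 152 stayed past the threshold and 140 and 92 did not, while of uncalled loci 11 values passed it and 1187 did not. Scaling by library totals or by loess called 18 peaks each, with 8 higher and 10 lower, and under each of the 2 scalings 1 of the original 18 was lost. The Cd36 locus stayed called under every alternative that gave it a value, and its peak 4646 bp upstream under all but thinning (adjusted p = 0.305). Apart from smaller sample numbers or depth by construction, the cause of these changes was not tested.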
